A study of Mus musculus with 12 samples.

Results

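The genes described here are 49 genes that drive or mark the cell cycle, from entry into S phase to the checkpoint that guards chromosome separation. They were measured in Eµ-Myc lymphoma lines treated with interferon beta (IFNβ) to excise Runx1. The members were chosen by name, as a list of G1/S regulators (11 genes), S phase genes (10), G2/M and mitosis genes (18) and mitotic checkpoint genes (10), and each was represented by the probe set of the array that carries its symbol alone. All 49 had exactly 1 such probe set, out of 30098 genes with a probe set of a single symbol.

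RNA of 12 cultures was hybridised to Affymetrix MTA 1.0 arrays, 1 array a culture, with 3 cultures in each of 4 groups. Both lines came from splenic lymphomas of mice on a C57BL6/CBA background that carried Mx1Cre, a Cre recombinase switched on by interferon, the EµMyc transgene, which drives Myc in B lineage cells, and p53+/-. Line 3s carried Runx1 fl/fl, so that IFNβ excises Runx1, and line 30s carried Runx1 wt/wt, which Cre cannot excise. The study calls 3s p53 null and reports loss of the wild-type p53 allele in most established lines. Cells received IFNβ at 50 U/ml or vehicle (PBS with 0.1% BSA) over 72 h and were then cultured without it for 6 days, so the vehicle groups give the level of each line without excision. Each genotype was a single established line, and the cultures of a group were separate cultures of that line, so genotype and line cannot be told apart. The submitters' genotype entry followed the treatment rather than the line, and groups were therefore taken from the line name and treatment.

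A cell commits to division when cyclin D and cyclin E kinases inactivate the retinoblastoma proteins and release E2F factors, which switch on genes for origin licensing, DNA synthesis and nucleotide supply. Genes for mitosis follow later, under the MuvB complex with B-Myb and FoxM1, which binds a short promoter element called the CHR. In mitosis the checkpoint proteins gather at kinetochores that have not yet caught the spindle and hold back the anaphase-promoting complex until all chromosomes are attached. Myc promotes entry into the cycle, and Runx1 has been linked to the length of G1 in blood cells.

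The cultures expressed B cell genes, as 7 of 7 B cell markers measured had means of 10.18 to 14.67 on the log2 scale of the arrays. By contrast 0 of 9 T and NK cell markers and 0 of 9 myeloid markers had a mean above 6.69, the highest value of any background probe set, and the means of those lists over the 4 groups stayed within 4.73 to 4.85 and 4.62 to 4.67. Alas2 of 3 erythroid genes and Pecam1 of 6 stromal genes passed it, with means of 6.74 and 9.91. The probe set of Runx1 read 7.78, 7.92 and 8.0 in 3s vehicle cultures and 7.69, 7.93 and 8.03 after IFNβ, groups that overlap. It read 8.38, 8.15 and 8.19 in 30s vehicle cultures and 8.34, 8.43 and 8.20 after IFNβ. The difference in 3s cells was -0.02 ± 0.10 (SE; limma, adjusted p = 0.992). It is 1 value for the whole gene, so it need not register loss of the floxed part and could not check the labels. Between the lines the Runx1 signal was lower in 3s cells with vehicle (-0.34; limma, adjusted p = 0.0249) and after IFNβ (-0.44; limma, adjusted p = 0.00542). The lines thus differed in Runx1 signal without excision. Of the cell cycle genes, 48 lay above every background probe set of their own array on 12 of 12 arrays and E2f1 on 11. Cultures of a group lay close together, with a median standard deviation within groups of 0.048 for the 49 genes (0.016 to 0.173) and 0.085 for all genes.

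Promoter sequence was at hand for 42 of the 49 genes, as 47 windows of 250 bases before to 50 bases after a RefSeq start site (mouse build GRCm38.p6). It was searched on both strands for the E2F letters TTTCCCGC or TTTGGCGC, the CHR letters TTTGAA, the CCAAT box (CCAAT), which binds NF-Y, and the Runx letters TGTGGT. E2F letters stood in 7 of the 47 windows (14.9%) and in 1.56% of all 32851 windows. All 7 belonged to the early phases, with 4 of 11 windows of G1/S regulators and 3 of 9 of S phase genes, against 0 of 16 for G2/M and 0 of 11 for checkpoint genes. CHR letters were placed the other way round, in 1 of 11, 1 of 9, 9 of 16 and 7 of 11 windows in the same order of phases, and in 17.9% of all windows. CCAAT was found in 61.7% of member windows and 37.4% of all, and the Runx letters in 12.8% and 16.8%. Matches overlapped, by 1 base, in Kntc1 (CCAAT with CHR) and Rrm1 (CCAAT with Runx). A match is a run of letters and not a measured binding site, and a window without one says nothing of the factor.
The windows shown belong to 5 genes that were higher in 3s than 30s cells in the results below, 3 of the early phases with E2F letters and 2 of mitosis with CHR letters. Capitals mark every match to the 4 motifs.
Mcm3 (chr1:20820263-20820562, minus strand): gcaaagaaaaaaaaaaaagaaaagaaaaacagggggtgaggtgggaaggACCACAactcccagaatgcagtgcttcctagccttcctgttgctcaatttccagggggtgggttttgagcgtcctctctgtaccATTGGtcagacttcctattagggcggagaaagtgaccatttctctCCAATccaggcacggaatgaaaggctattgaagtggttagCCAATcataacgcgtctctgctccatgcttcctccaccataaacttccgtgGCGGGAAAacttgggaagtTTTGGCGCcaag
Mcm5 (chr8:75109259-75109558, plus strand): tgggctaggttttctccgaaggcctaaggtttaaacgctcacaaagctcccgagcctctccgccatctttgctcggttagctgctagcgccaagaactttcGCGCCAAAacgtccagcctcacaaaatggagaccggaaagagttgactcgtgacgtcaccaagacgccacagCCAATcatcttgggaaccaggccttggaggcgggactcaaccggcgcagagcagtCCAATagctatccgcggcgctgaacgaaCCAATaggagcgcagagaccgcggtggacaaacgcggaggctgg
Cdc6 (chr11:98907901-98908200, plus strand): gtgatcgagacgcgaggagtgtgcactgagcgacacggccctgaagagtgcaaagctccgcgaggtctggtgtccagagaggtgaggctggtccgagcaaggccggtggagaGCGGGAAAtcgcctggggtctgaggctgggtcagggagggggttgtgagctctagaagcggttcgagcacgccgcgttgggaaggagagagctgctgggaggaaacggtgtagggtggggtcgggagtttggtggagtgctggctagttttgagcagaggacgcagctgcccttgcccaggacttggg
Ccnb2 (chr9:70421505-70421804, minus strand): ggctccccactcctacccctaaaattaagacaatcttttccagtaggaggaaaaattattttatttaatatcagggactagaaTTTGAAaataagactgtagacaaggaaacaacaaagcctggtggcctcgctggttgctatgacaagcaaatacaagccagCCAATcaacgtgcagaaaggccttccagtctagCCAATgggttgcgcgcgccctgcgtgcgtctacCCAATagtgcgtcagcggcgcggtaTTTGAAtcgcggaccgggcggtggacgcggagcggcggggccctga
Ttk (chr9:83834439-83834738, plus strand): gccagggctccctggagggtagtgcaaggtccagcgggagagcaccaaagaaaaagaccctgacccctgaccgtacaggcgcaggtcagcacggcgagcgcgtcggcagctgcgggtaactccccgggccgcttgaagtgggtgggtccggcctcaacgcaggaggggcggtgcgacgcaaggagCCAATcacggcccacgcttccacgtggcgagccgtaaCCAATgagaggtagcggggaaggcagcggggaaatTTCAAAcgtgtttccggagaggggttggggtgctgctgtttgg
In Mcm3 the E2F letters began at bases 20 and 39, counted from the start site, and in Mcm5 and Cdc6 at bases -149 and -138. Ccnb2 had 3 CCAAT boxes, at bases -87, -54 and -21, ahead of CHR letters at base 5 and further CHR letters at base -167, and Ttk had 2, at bases -65 and -28, with CHR letters at base 8. Mcm3 alone of the 5 also held Runx letters, at base -201.

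The first question was whether these genes changed when Runx1 was excised. After IFNβ none of the 49 genes passed the test in 3s cells (limma, adjusted p under 0.05 over 30098 genes), a test that 307 genes (1.02%) passed. The log2 differences between 3 IFNβ and 3 vehicle arrays ran from -0.19 to 0.16, the largest change was 1.14-fold (Nek6), and the outermost 95% confidence bounds of any gene were -0.43 and 0.29. The median over the 49 genes was -0.001 and that over all genes -0.002. RNA came from whole cultures, in which fewer cells in a phase and less RNA per cell cannot be told apart. Without adjustment 7 of the 49 had p under 0.05, beside 8.05% of all genes and 10.2% of the 5209 bright genes, those with a mean log2 of at least 10, to which 41 of the members belong. The arrays of the groups did not overlap for 13 of 49, beside 13.4% of all and 17.0% of bright genes. The methods' t-test without adjustment selected 9 of the 49 (7.57% of all genes), of which 4 were higher and 5 lower after IFNβ.

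**Figure D1:**
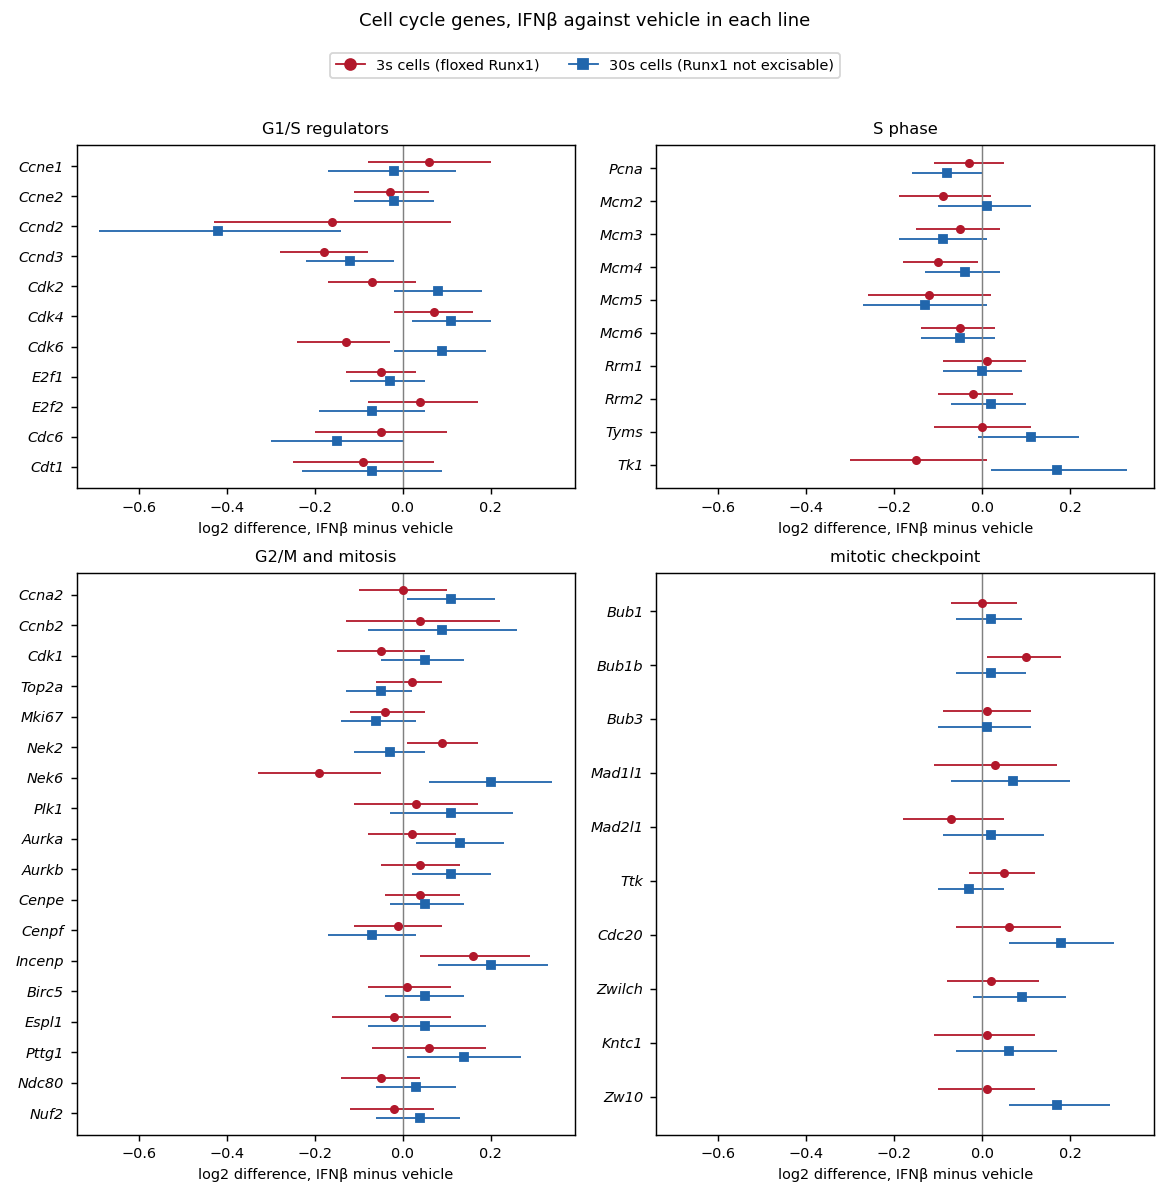
Log2 difference between IFNβ and vehicle cultures (x axis) for each of the 49 genes (y axis, grouped by phase), with 3s cells as red circles, 30s cells as blue squares and lines for the 95% confidence interval of limma. Points lie between -0.19 and 0.16 in 3s cells and between -0.42 and 0.20 in 30s cells, and none passed the adjusted test.

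Among the G1/S regulators, 3 of 11 lay above 0 and 8 below it in 3s cells (median -0.052). Ccnd3, which encodes cyclin D3, the D-type cyclin of germinal centre and pre-B cells, read 6.74, 6.78 and 6.81 with vehicle and 6.63, 6.6 and 6.56 after IFNβ. Its groups did not overlap, and the difference of -0.18 ± 0.05 had the smallest adjusted p of the 49 genes, 0.14 (limma). Cyclin D3 in 30s cells differed by -0.12 (limma, adjusted p = 0.282), and the effect in 3s minus that in 30s cells was -0.06 ± 0.07. Cdk6, a kinase that cyclin D activates, read 13.41, 13.41 and 13.50 with vehicle and 13.30, 13.27 and 13.35 after IFNβ in 3s cells. Its difference was -0.13 (limma, adjusted p = 0.419) in 3s and 0.09 in 30s cells. The other D-cyclin kinase, Cdk4, differed by 0.07 and 0.11, and Ccne1, Ccne2 and Cdk2, which act at the G1/S boundary, by 0.06, -0.03 and -0.07 in 3s cells. The licensing factors Cdc6 and Cdt1 differed by -0.05 and -0.09, within their errors of 0.07 and 0.07.

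The S phase genes lay below 0 in 9 of 10 cases in 3s cells, with a median of -0.054, and none passed the adjusted test. All are bright, and bright genes leaned the other way in 3s cells, with 3023 of 5209 above 0 and a median of 0.012. Mcm4, a subunit of the replicative helicase, read 14.57, 14.52 and 14.55 with vehicle and 14.41, 14.47 and 14.48 after IFNβ. These did not overlap, at a difference of -0.10 ± 0.04 (limma, adjusted p = 0.526). The other helicase subunits Mcm2, Mcm3, Mcm5 and Mcm6 differed by -0.09, -0.05, -0.12 and -0.05. In 30s cells, where Cre cannot excise Runx1, Mcm2, Mcm3, Mcm4, Mcm5 and Mcm6 differed by 0.01, -0.09, -0.04, -0.13 and -0.05. The differences of the effects were -0.09, 0.03, -0.05, 0.01 and 0.00 in the same order, and none passed the adjusted test. Of the S phase genes 6 lay below 0 and 4 above it in 30s cells. Tk1, the thymidine kinase that salvages thymidine during S phase, read 11.60, 11.42 and 11.52 with vehicle and 11.36, 11.33 and 11.39 after IFNβ in 3s cells, a difference of -0.15. In 30s cells it read 11.46, 11.32 and 11.17 and then 11.53, 11.42 and 11.52, a difference of 0.17, so that the effects lay on either side of 0. The difference of the effects, -0.32 ± 0.10, did not pass (limma, adjusted p = 0.214). The genes of ribonucleotide reductase, which makes the building blocks of DNA, were near their vehicle level, with Rrm1 differing by 0.01 (95% confidence interval -0.09 to 0.10) and Rrm2 by -0.02 (-0.10 to 0.07).

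Of the G2/M and mitosis genes 10 lay above 0 and 8 below it in 3s cells (median 0.015). Nek2 and Nek6 are mitotic kinases that, with Bub1b, the study named from these same arrays, so their values are no independent evidence. Nek2, which acts in centrosome separation, read 11.32, 11.27 and 11.31 with vehicle and 11.42, 11.37 and 11.38 after IFNβ in 3s cells. Each IFNβ array was above each vehicle array, by 0.09 ± 0.04 in the mean (limma, adjusted p = 0.513). Nek6, a kinase of spindle assembly, read 7.67, 7.70 and 7.69 with vehicle and 7.58, 7.46 and 7.45 after IFNβ in 3s cells, again without overlap but lower, by 0.19 ± 0.06 (limma, adjusted p = 0.339). In 30s cells it read 7.11, 7.07 and 7.30 with vehicle and 7.41, 7.30 and 7.38 after IFNβ, where the groups touch at 7.30. Its effect there was 0.20, and the difference of the effects, -0.39 ± 0.09, was the largest of the 49 and came nearest to the threshold (limma, adjusted p = 0.0785). It passed when the 30s vehicle culture that read 7.30 was left out (-0.46) and when dim genes were left out before the test. Incenp, the scaffold of the chromosomal passenger complex, read 10.98, 10.95 and 11.12 with vehicle and 11.25, 11.15 and 11.14 after IFNβ, a difference of 0.16 in 3s beside 0.20 in 30s cells. The mitotic kinases Cdk1, Plk1, Aurka and Aurkb differed by -0.05, 0.03, 0.02 and 0.04, and the proliferation marker Mki67 by -0.04.

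The mitotic checkpoint genes lay above 0 in 9 of 10 cases in 3s cells, and also in 9 of 10 in 30s cells, with medians of 0.017 and 0.039. Bright genes in general leaned the same way, with 3023 of 5209 above 0 in 3s and 3502 in 30s cells. The counts of signs were not tested. Bub1b, which encodes the checkpoint kinase-like protein BubR1, read 14.03, 14.04 and 14.09 with vehicle and 14.17, 14.12 and 14.15 after IFNβ in 3s cells. The groups did not overlap and differed by 0.10 ± 0.04 (limma, adjusted p = 0.504), a 1.07-fold difference. In 30s cells it read 14.06, 14.06 and 14.01 and then 14.07, 14.04 and 14.09, a difference of 0.02, and the difference of the effects was 0.08 (limma, adjusted p = 0.696). Its partners Bub1 and Bub3 differed by 0.00 and 0.01 in 3s cells, with 95% confidence intervals of -0.07 to 0.08 and -0.09 to 0.11. Mad2l1, which binds and holds Cdc20, was the one checkpoint gene below 0, at -0.07.

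In 30s cells, where IFNβ induces Cre without a floxed Runx1, again none of the 49 genes passed the test, beside 346 genes (1.15%). Without adjustment 14 of 49 had p under 0.05, beside 13.5% of all and 22.9% of bright genes, and for 21 of 49 the arrays of the groups did not overlap, beside 18.7% of all and 33.5% of bright genes. Of the 41 bright members 11 and 17 did so. The 14 genes comprised 10 with higher and 4 with lower values after IFNβ. Ccnd2, encoding cyclin D2, had the largest difference of either line. It read 6.97, 6.99 and 6.76 with vehicle and 6.22, 6.55 and 6.70 after IFNβ, a difference of -0.42 (95% confidence interval -0.69 to -0.14; limma, adjusted p = 0.146). These values lie near the highest background value of 6.69. In 3s cells the same gene read 9.58, 9.81 and 9.90 and then 9.64, 9.46 and 9.70, groups that overlap, at -0.16 ± 0.12. Cdc20, the activator of the anaphase-promoting complex that the checkpoint restrains, read 13.16, 13.17 and 13.06 with vehicle and 13.37, 13.26 and 13.30 after IFNβ in 30s cells, a difference of 0.18 (limma, adjusted p = 0.148). Zw10, which brings dynein to kinetochores, read 10.67, 10.63 and 10.71 and then 10.95, 10.78 and 10.80, a difference of 0.17, against 0.01 in 3s cells. Cdc20, Zw10 and Incenp, at 0.20, were the 3 genes that passed in 30s cells when the test was run on the 5209 genes with a mean log2 of at least 10 only. Bright genes as a whole were shifted in the same direction in 30s cells, with a median of 0.038 over those 5209 genes, so that the phase medians of -0.033 (G1/S), -0.022 (S), 0.054 (G2/M) and 0.039 (checkpoint) stand beside it.

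The comparison the design turns on is the difference between the IFNβ effects of the lines, which sets aside what IFNβ and Cre do in both. None of the 49 genes passed it, beside 307 genes (1.02%), and 6 of 49 had an unadjusted p under 0.05, beside 11.2% of all and 16.4% of bright genes. These were Nek6, Cdk6, Tk1, Nek2, Cdk2 and Zw10, of which Nek2, at 0.12, was the one with the more positive effect in 3s cells. The differences ran from -0.39 to 0.26, the confidence bounds from -0.59 to 0.64, and Ccnd2 had the widest interval (-0.13 to 0.64).

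The levels of the lines without excision set more of these genes apart than IFNβ did in either line. With vehicle, before any excision, 30 of the 49 genes differed between 3s and 30s cells (limma, adjusted p under 0.05), 25 higher and 5 lower in 3s. The lines differed widely in general, with 24.9% of all genes past the same test, 14.3% higher and 10.6% lower. Most of the 49 are bright on the array, and bright genes had less spread within groups (median standard deviation 0.065 for genes with a mean of at least 10). Of the 41 members with a mean log2 of at least 10, 24 passed (58.5%), near the 53.3% of the 5209 genes of that brightness, and 20 of the 41 were higher in 3s, beside 31.6% of those genes. Arrays of the lines did not overlap for 34 of 49 members, 29 higher and 5 lower in 3s, beside 38.2% of all genes, and for 27 of the 41 bright members, beside 67.4% of bright genes. By phase 4 G1/S regulators were higher and 1 lower, 6 S phase genes higher and 0 lower, 11 G2/M genes higher and 3 lower, and 4 checkpoint genes higher and 1 lower.

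**Figure D2:**
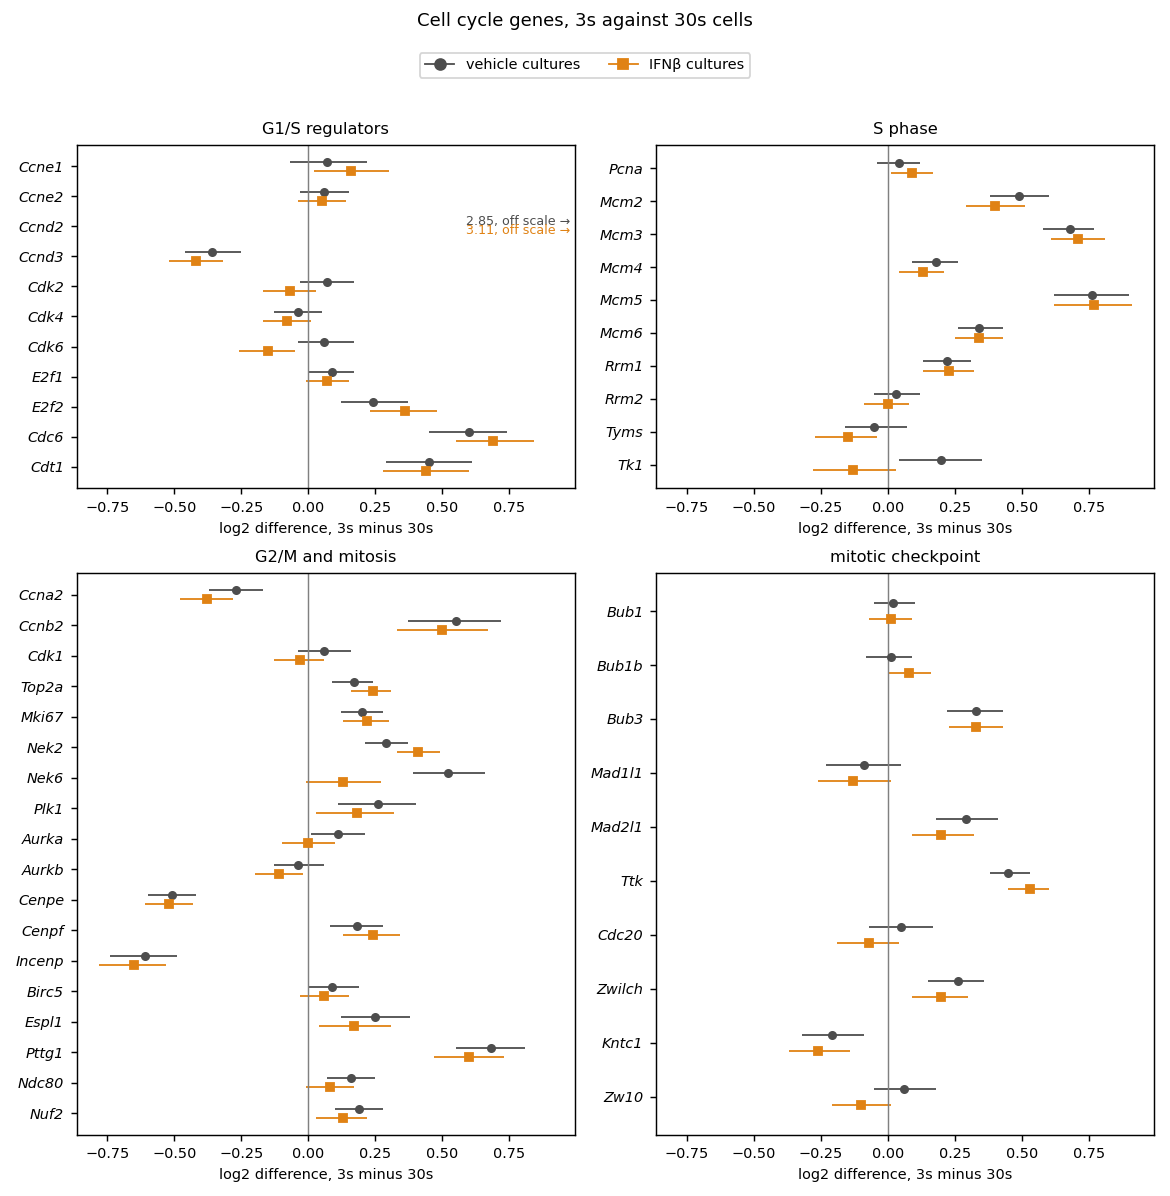
Log2 difference between 3s and 30s cells (x axis) for each of the 49 genes (y axis, by phase), with vehicle cultures as grey circles, IFNβ cultures as orange squares and lines for the 95% confidence interval of limma. Ccnd2 is written as numbers at the edge because 2.85 and 3.11 lie off the scale, and the remaining points lie between -0.65 and 0.77.

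Among the G1/S regulators cyclin D2 stood apart. Ccnd2 read 9.58, 9.81 and 9.90 in 3s and 6.97, 6.99 and 6.76 in 30s vehicle cultures, which is 7.23-fold higher in 3s (2.85 ± 0.12; limma, adjusted p = 2.23e-08). The 30s values are near background, so cyclin D2 was well measured in 3s cells and barely so in 30s cells. Cyclin D3 went the other way, with 6.74, 6.78 and 6.81 in 3s and 7.19, 7.07 and 7.16 in 30s cells. Ccnd3 was lower by 1.28-fold in 3s (-0.36 ± 0.05; limma, adjusted p = 0.000131), and it was the one G1/S regulator to be so. Cdc6, which loads the helicase onto origins, read 12.08, 11.94 and 12.04 in 3s and 11.53, 11.44 and 11.32 in 30s cells and was higher by 0.60 ± 0.07 (limma, adjusted p = 4.25e-05). Its partner Cdt1 was higher by 0.45 (95% confidence interval 0.29 to 0.61), and E2f2, a transcription factor of S phase entry, by 0.24 (limma, adjusted p = 0.00644). The Cdt1 and E2f2 calls were lost under the methods' t-test after adjustment, and that of E2f2 also under cyclic loess. The kinases Cdk2, Cdk4 and Cdk6 and the cyclins Ccne1 and Ccne2 did not pass, with differences of 0.07, -0.04, 0.06, 0.07 and 0.06.

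In S phase the helicase subunits were all higher in 3s cells. Mcm5 read 12.39, 12.30 and 12.49 in 3s and 11.77, 11.56 and 11.58 in 30s vehicle cultures, a difference of 0.76 ± 0.06 (limma, adjusted p = 4.54e-06). Mcm3 read 13.89, 13.88 and 13.97 and 13.25, 13.26 and 13.20, a difference of 0.68 ± 0.04 (limma, adjusted p = 5.31e-07). The lowest 3s array was above the highest 30s array for each of the 5 subunits measured, and Mcm2, Mcm6 and Mcm4 were higher by 0.49, 0.34 and 0.18. These subunits form 1 ring in equal numbers, and the differences of the probe sets ranged from 0.18 to 0.76. Rrm1, the large subunit of ribonucleotide reductase, was higher by 0.22 (limma, adjusted p = 0.00227), while the small subunit Rrm2 differed by 0.03 (95% confidence interval -0.05 to 0.12). The sliding clamp gene Pcna (0.04), thymidylate synthase Tyms (-0.05) and Tk1 (0.20) did not pass. The 7 genes with E2F letters in a window were Mcm3, Mcm5 and Cdc6, printed above, and Mcm6, Cdt1, E2f2 and Cdk2, of which Cdk2 alone did not pass. This count of 6 of 7 stands beside 12 of 17 members with CHR letters, 19 of 27 with CCAAT and 25 of the 42 with any window. Of all genes 24.9% passed this comparison, and of bright genes 53.3%. The counts were not tested against each other or against these shares.

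**Figure D3:**
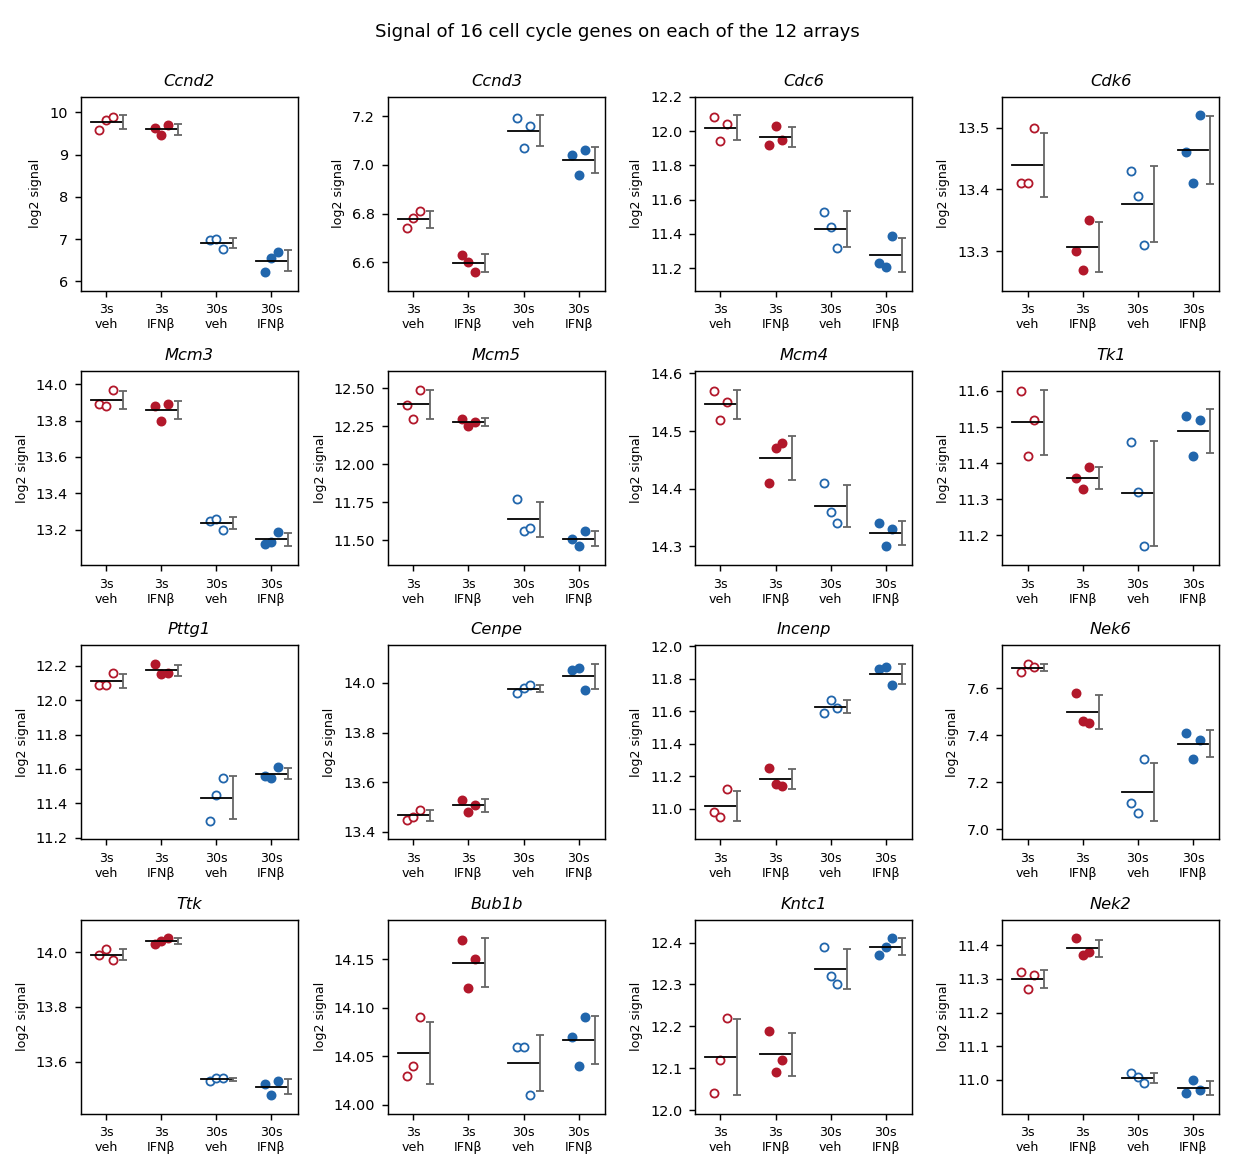
Log2 signal (y axis, a separate scale in each panel) of 16 of the 49 genes on each array in the 4 groups (x axis), with vehicle as open and IFNβ as filled points, 3s in red and 30s in blue, a bar for the mean and a grey error bar for ± 1 SD of 3 cultures. For Ccnd2, Mcm3, Mcm5, Cdc6, Pttg1 and Ttk every 3s point lies above every 30s point, for Ccnd3, Cenpe and Incenp every one lies below, and the groups of a line lie close together.

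The G2/M genes held differences in both directions. Pttg1, securin, which restrains separase until anaphase, read 12.09, 12.09 and 12.16 in 3s and 11.30, 11.45 and 11.55 in 30s vehicle cultures and was 1.60-fold higher in 3s (0.68 ± 0.06; limma, adjusted p = 4.69e-06). Ccnb2, cyclin B2, read 13.72, 13.79 and 13.87 and 13.23, 13.18 and 13.32, a difference of 0.55 ± 0.08. Nek6 read 7.67, 7.70 and 7.69 in 3s and 7.11, 7.07 and 7.30 in 30s cells, 0.52 higher, and Nek2 11.32, 11.27 and 11.31 and 11.02, 11.01 and 10.99, 0.29 higher. These vehicle differences of the kinases were larger than their IFNβ differences in 3s cells, which were -0.19 and 0.09. Top2a, the topoisomerase that untangles sister chromatids, and Mki67 were higher by 0.17 and 0.20. The 3 G2/M genes lower in 3s were Incenp, Cenpe and Ccna2. Incenp read 10.98, 10.95 and 11.12 in 3s and 11.59, 11.67 and 11.62 in 30s cells (-0.61 ± 0.06; limma, adjusted p = 8.32e-06). Cenpe, the kinetochore motor that moves chromosomes to the spindle equator, read 13.45, 13.46 and 13.49 and 13.96, 13.98 and 13.99 (-0.51 ± 0.04). Ccna2, cyclin A2 of S phase and G2, read 14.53, 14.51 and 14.48 and 14.79, 14.76 and 14.79 (-0.27 ± 0.05; limma, adjusted p = 0.000972). Thus for these 3 genes the 3s arrays were all below the 30s arrays. Cdk1, the kinase that cyclins A and B activate, differed by 0.06 and Aurkb, which binds Incenp, by -0.04, and neither passed.

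Of the checkpoint genes Ttk, the kinase Mps1 that starts checkpoint signalling at kinetochores, read 13.99, 14.01 and 13.97 in 3s and 13.53, 13.54 and 13.54 in 30s vehicle cultures. It was 1.37-fold higher in 3s (0.45 ± 0.03; limma, adjusted p = 1.81e-06), and the arrays of the lines did not overlap. Bub3, which docks Bub1 and BubR1 at kinetochores, was higher by 0.33, Mad2l1 by 0.29 and Zwilch, of the complex that recruits dynein, by 0.26. Kntc1, the Rod subunit of that same complex, was lower, with 12.04, 12.12 and 12.22 in 3s and 12.39, 12.32 and 12.30 in 30s cells (-0.21; limma, adjusted p = 0.0115). That call was lost without 3s vehicle replicate 1 (-0.16), under median centring and under the methods' t-test. The third subunit, Zw10, differed by 0.06, so that the complex had one gene higher, one lower and one not past the test. Bub1 and Bub1b did not pass between the lines, at 0.02 (95% confidence interval -0.05 to 0.10) and 0.01 (-0.08 to 0.09).

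After IFNβ the lines were again apart, for 28 of the 49 genes (21 higher and 7 lower in 3s), beside 26.9% of all genes. Of all genes 13.9% were higher and 13.0% lower. Of the 41 members with a mean of at least 10, 24 passed (58.5%), near the 58.0% of all genes of that brightness. The IFNβ cultures are other cultures of the same lines, and 26 genes were called in both comparisons, each in the same direction. Ccnd2 was 8.64-fold higher in 3s cells after IFNβ, and Mcm5, Mcm3, Cdc6 and Ttk were higher by 0.77, 0.71, 0.69 and 0.53. Incenp, Cenpe, Ccnd3 and Ccna2 were lower, at -0.65, -0.52, -0.42 and -0.38. Genes called with vehicle alone were Nek6, Plk1, Espl1 and Ndc80. Nek6, 0.52 higher with vehicle, was 0.13 higher after IFNβ (limma, adjusted p = 0.168). Genes called after IFNβ alone were Cdk6 (-0.15) and Tyms (-0.15), both lower in 3s and both close to the threshold (limma, adjusted p = 0.0321 and 0.0457). Leaving out single arrays ended the Tyms call in 9 and the Cdk6 call in 4 of 12 cases, and Mcm4 and Nuf2 lost theirs in 5 and 10. That a gene was called in one condition and not in the other is not a test, and the difference between conditions, which is the difference of the IFNβ effects, passed for none of the 49.

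Averaged by phase, the lines separated in each of the 4 phases. Each gene was centred on its mean over the 12 arrays and the genes of a phase were averaged on each array, with Ccnd2 left out so that 1 gene should not decide the G1/S mean. In S phase the 3s vehicle arrays lay between 0.13 and 0.177 and the 3s IFNβ arrays between 0.087 and 0.126, while the 30s arrays lay between -0.17 and -0.071 with vehicle and between -0.157 and -0.114 after IFNβ. S phase had the widest gap between the lines. It was not a shift of every S phase gene. With vehicle Pcna (0.04), Rrm2 (0.03), Tyms (-0.05) and Tk1 (0.20) did not pass between the lines. After IFNβ Tyms and Tk1 lay below 0, at -0.15 and -0.13. For G2/M genes the 3s arrays lay between 0.024 and 0.078 in both treatments, and the 30s arrays between -0.092 and -0.066 with vehicle and between -0.031 and -0.009 after IFNβ. For checkpoint genes the 30s arrays lay between -0.1 and -0.059 with vehicle and between -0.037 and -0.007 after IFNβ. Within each of the 4 phases every 3s array was above every 30s array. Taken singly, 38.2% of all genes and 67.4% of bright genes also kept the vehicle arrays of the lines apart, in either direction. For G1/S regulators the lowest 3s array lay at 0.026 and the highest 30s array at -0.009. That gap was not a shift of all genes of the phase. After IFNβ 7 of the 11 G1/S regulators lay above 0 and 4 below it between the lines. Cdc6 and Cdt1 were at 0.69 and 0.44 and Ccnd3 at -0.42. Phase means were not tested, and the shift of all bright genes in 30s cells, 0.038, is part of the values for that line.

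**Figure D4:**
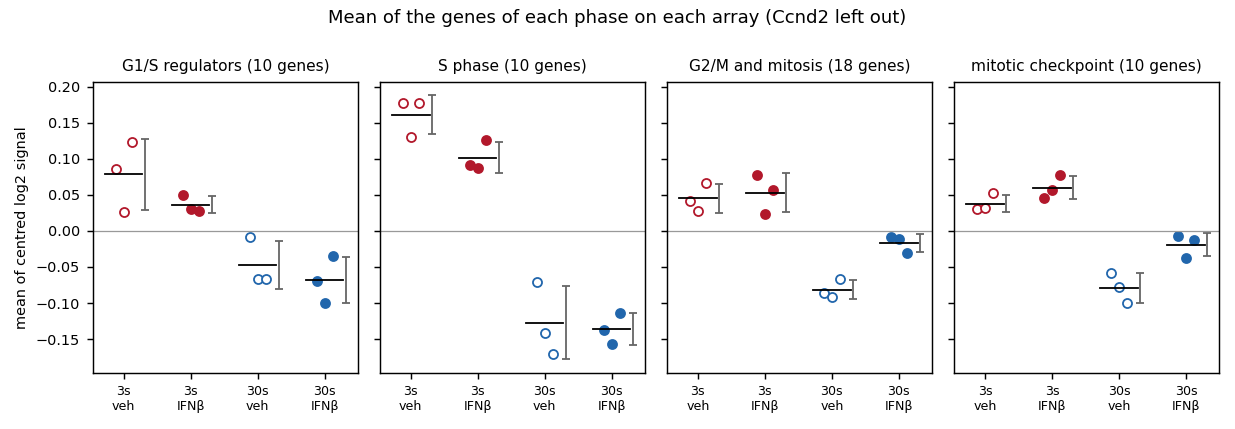
Mean of the centred log2 signal over the genes of each phase (y axis, log2 relative to the mean of 12 arrays, Ccnd2 left out) on each array in the 4 groups (x axis), with open points for vehicle, filled points for IFNβ, red for 3s, blue for 30s, bars for means and grey error bars for ± 1 SD of 3 cultures. All 6 arrays of 3s cells lie above all 6 of 30s cells in each panel, most widely for S phase genes.

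Of the 5 genes that were lower in 3s cells with vehicle, 3 lie on the chromosomes whose bright genes had the lowest medians. Ccna2 and Cenpe lie on chromosome 3 and Incenp on chromosome 19, and the median vehicle difference between 3s and 30s cells over all genes with a mean of at least 10 was -0.302 on chromosome 3 (303 genes) and -0.3 on chromosome 19 (144 genes). Kntc1 lies on chromosome 5, with a median of -0.052. The highest medians were 0.232 on chromosome 8 (241 genes), where Mcm5 and Cdt1 lie, and 0.226 on chromosome 9 (280 genes), where Ccnb2, Ttk, Zwilch and Zw10 lie. Chromosome 7 had a median of 0.215 and 4 of 5 members higher in 3s, while its member Ccne1 (0.07) did not pass. Chromosome 1, with Mcm3, Mcm6, Nek2, Cenpf and Nuf2, had a median of 0.19 and all 5 of its members higher in 3s. On chromosome 2, with a median of 0.127, 1 of 6 members passed, Nek6. Members also passed on chromosomes whose median was near 0, as Pttg1 and Cdc6 did on chromosome 11 (-0.016), and Ccnd3 was lower on chromosome 17, where the median was 0.171. Chromosomes 3 and 19 also had the highest medians for IFNβ against vehicle in 30s cells, 0.108 and 0.13, beside 0.11 for Ccna2, 0.05 for Cenpe and 0.20 for Incenp in that comparison, and 0.006 and 0.032 in 3s cells. The chromosomes were looked at after the values were seen, and their part in the differences of the genes was not tested.

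**Figure D5:**
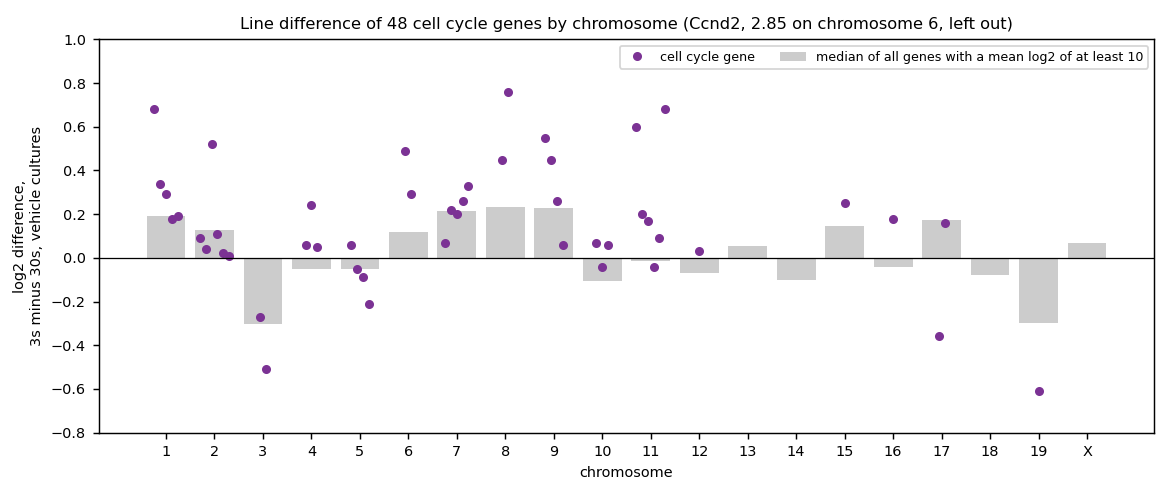
Log2 difference between 3s and 30s vehicle cultures (y axis) by chromosome (x axis), with purple points for 48 cell cycle genes and grey bars for the median of all genes of the chromosome with a mean log2 of at least 10. The members on chromosomes 3 and 19 lie below 0 as the bars do (-0.302 and -0.3), and those on chromosomes 1, 7, 8 and 9 lie above 0.

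A list of 99 further cell cycle genes, of which 91 had a probe set, was counted beside the members. After IFNβ 1 of 91 passed in 3s cells, Cdc7, a kinase that fires origins (0.27; limma, adjusted p = 0.0386), beside 1.02% of all genes, and 2 in 30s cells, beside 1.15%, Rfc5, a clamp loader subunit (0.21), and Cdc25c, a phosphatase that activates Cdk1 (0.23). None of them passed in the difference of the effects. Between the vehicle cultures of the lines 44 were higher and 17 lower in 3s cells, 67.0% of the 91 beside 24.9% of all genes. Of the 73 that were bright 32 were higher and 15 lower, 64.4% beside 53.3% of bright genes. Of the regulators of transcription 9 were higher and 4 lower, among them Mybl1 (0.67), Mybl2 (0.58), which encodes B-Myb, E2f4 (0.45) and E2f8 (0.43) above and E2f6 (-2.56), a repressor of the E2F family, and E2f5 (-0.75) below. With vehicle E2f6 had a mean of 6.33 in 3s cells, under the highest background value of 6.69, and of 8.90 in 30s cells. It was thus barely measured in 3s cells. The licensing and fork genes had 11 higher and 5 lower, with Mcm10 at 0.47, and the genes of mitotic entry and exit 7 higher and 2 lower, with Pkmyt1, a kinase that inhibits Cdk1, at 0.97. Spindle and kinetochore genes had 17 higher and 6 lower, with Dsn1 of the kinetochore at 0.64 and Ect2, which directs cytokinesis, at -0.85. Ect2, E2f5, Pmf1 and Cks1b lie on chromosome 3 and Kif11 and Kif20b on chromosome 19. With the 49 members counted in, 11 cell cycle genes on those chromosomes were measured, of which 0 were higher and 9 lower in 3s cells, against 69 higher and 13 lower among 129 on the others. These chromosomes were singled out after the values of the members were seen, and 3 of the 9 are members. The contrast is thus partly set by that choice, and it was not tested. Bright genes of all kinds had medians of -0.302 and -0.3 on these chromosomes.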

How the data were processed

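The authors hybridised total RNA of 3 cultures in each of 4 groups to Affymetrix MTA 1.0 arrays and deposited log2 values after RMA (background correction, quantile normalisation and probe set summary), per the labels with Affymetrix Expression Console 1.4. The study's methods name Partek Genomics Suite for the same step. The median array lay between 5.427 and 5.492.

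Of 72688 probe sets, 6732 controls were set aside, and 30638 had 1 gene symbol, 2176 several and 33142 none. After updating 330 symbols, each of 30098 genes was given its probe set of highest mean. limma 3.58.1 (R 4.3.3) was fitted to 4 group means over 12 arrays with 8 residual degrees of freedom, and p-values were adjusted by Benjamini-Hochberg over all genes for each of 5 comparisons. Differences are log2 values with standard errors from that fit, and the fit was tested on simulated data. The p-values measure the spread between cultures of 1 line, and their precision is set by 3 arrays a group. The members, lists and tests were chosen with earlier results of these data known. Named were, for each phase, the 3 genes of smallest p in each IFNβ comparison, the 4 largest line differences in each direction and Nek2, Nek6 and Bub1b. Promoters are from RefSeq and motif counts were not tested. The alternatives were other normalisations, filters, spread models, probe set choices, the methods' t-test, a replicate block and each array left out, and, added after seeing the data, genes with a mean of at least 10 only.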

Additional observations from a re-analysis of the deposited data

How the results depend on the processing

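The count of members past the adjusted test stayed at 0 for IFNβ in 3s cells under every alternative, was 0 in 30s cells except for 3 on genes with a mean of at least 10 (Cdc20, Incenp and Zw10, an alternative chosen after seeing the data), and was 0 or 1 for the difference of the effects. That 1 was Nek6, with dim genes left out and without 30s vehicle replicate 3. The methods' t-test without adjustment gave 9, 14 and 9 members for these 3 comparisons and 0 after adjustment. The share of all genes passing this t-test was taken for 3s cells only (7.57%). The 14 members in 30s cells and the 9 for the difference of the effects therefore cannot be set against a general rate. The cause of the changes in count between alternatives was not tested. Between the lines, requiring the methods' fold threshold as well left 15 of 30 with vehicle and 17 of 28 after IFNβ. Leaving out each array gave 28 to 31 and 24 to 29, and the vehicle calls of Cenpf, Ndc80, Plk1 and Kntc1 were lost in 3, 2, 1 and 1 of these 12 cases.

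The numbers that cultures share gave no sign of pairing, with correlations of same-numbered deviations from -0.097 to 0.126. These were taken over all genes, dim ones included, and cannot exclude pairing. With a replicate block the counts of members were 0, 0 and 0 for IFNβ in 3s cells, in 30s cells and for their difference, 30 between the vehicle cultures and 26 after IFNβ, where Mcm4, Nuf2 and Tyms lost and Ccne1 gained the call.

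Differences that changed sign were all small and uncalled. In 3s cells the IFNβ difference of Zw10 became -0.01 under quantile normalisation, and those of Aurka, Zwilch and Zw10 ran from -0.02 to 0.05, -0.02 to 0.05 and -0.02 to 0.04 over the single arrays left out. In 30s cells those of Bub1b and Mad2l1 became -0.02 and -0.03 under quantile normalisation and -0.01 and -0.01 under cyclic loess. There Mad2l1 ran from -0.02 to 0.05 over single arrays left out, and the difference of the effects from -0.06 to 0.06 for Mcm5 and -0.08 to 0.01 for Incenp.

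The limits of these arrays are 1 line for each genotype, 3 cultures a group, 1 probe set a gene and a Runx1 value that does not show excision. Ccnd2 in 30s cells, Ccnd3, E2f1 and Nek6, and E2f6 of the further genes in 3s cells, lie near background, where differences can be compressed. The shares of cells in each phase were not analysed here.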
